A study of Mus musculus with 6 samples.

Results

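Kupffer cells, the resident macrophages of the liver, were followed through 10 marker genes in bulk RNA-seq of mouse liver. The genes were Clec4f, Timd4, Vsig4, Marco, Cd5l, Adgre1, Csf1r, C1qa, C1qb and C1qc. They were taken by gene symbol from a deposited table of 34745 genes, and all 10 were found and were among the 14137 genes tested. The 6 libraries were made from livers of mice kept for 6 weeks on an MCD diet, a feed without methionine and choline that is used to bring on steatohepatitis. Of these, 3 carried the genotype label Sox9HKO (replicates 9, 10 and 12) and 3 the label Sox9f/f (replicates 5, 6 and 8). Sox9f/f denotes a floxed Sox9 gene, and the labels name neither a Cre line nor the cells in which Sox9 was to be lost. Age and sex were not used here, and no group without the diet was analysed here.

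Kupffer cells sit inside the liver sinusoids and clear bacteria, spent blood cells and immune complexes from portal blood. They depend on signals through the CSF1 receptor, and in mice the resident population carries the lectin Clec4f and the phosphatidylserine receptor Timd4. In steatohepatitis, resident Kupffer cells are known to be lost in part and monocytes to enter the liver and take up the empty niche. Clec4f, Timd4, Vsig4, Marco and Cd5l are called Kupffer-restricted below, since in liver they belong mainly to resident macrophages, whereas Adgre1, Csf1r and the C1q chains are shared with recruited macrophages.

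Total counts per library lay between 22826962 and 27286864. Sox9 itself had 15.3, 18.1 and 22.7 CPM (counts scaled to library size) in the libraries labelled Sox9HKO, against 5.80, 5.31 and 5.80 CPM in those labelled Sox9f/f. The log2 fold change was 1.73 ± 0.18 (SE; DESeq2 adjusted p = 7.88e-12, edgeR adjusted p = 0.0830), higher under the label Sox9HKO. Counts per gene from whole liver pool all cell types, so a loss of Sox9 in a given cell type was not tested. Every direction below is therefore one between libraries by label. Values per library are given in the order of replicates 9, 10 and 12 for Sox9HKO and 5, 6 and 8 for Sox9f/f. Hepatocyte markers were abundant throughout, with 10 markers summing to 90151.2 to 97906.7 CPM under the label Sox9HKO and to 111547.7 to 115561.4 under Sox9f/f, and Alb alone was between 58189.5 and 78655.1 CPM. Tissue RNA cannot tell fewer cells of a type from less RNA per cell.

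The macrophage markers were all present in every library, and the lowest single value was 71 counts, for Timd4. On the deposited scale per gene length, FPKM, Cd5l averaged 151 ± 58.1 in libraries labelled Sox9HKO and 101 ± 4.62 in those labelled Sox9f/f (SD, n = 3 each). C1qb followed with 124 ± 32.9 FPKM under the label Sox9HKO and 88.5 ± 17.7 under Sox9f/f, and C1qa with 117 ± 39.8 FPKM under Sox9HKO and 84.9 ± 12.2 under Sox9f/f. In the libraries labelled Sox9f/f the ranges of these top 3 overlapped, so their order is not resolved. C1qc at 42.8 ± 5.35 and Clec4f at 38.0 ± 3.94 FPKM came next in those labelled Sox9f/f, again with overlapping ranges. Below them Vsig4 (21.9 ± 2.27), Csf1r (21.8 ± 4.38) and Marco (19.5 ± 3.10 FPKM) could not be ordered beyond their spread. Adgre1 at 9.51 ± 0.982 and Timd4 at 2.17 ± 0.435 FPKM were lowest in those labelled Sox9f/f, each apart from its neighbours. In libraries labelled Sox9HKO Marco averaged 41.2 ± 27.6 FPKM, above Vsig4 at 33.8 ± 15.8 and Csf1r at 31.4 ± 10.3, with ranges that overlapped widely. The order rests on the gene lengths behind the FPKM, and for C1qc this is 2149 bases against a coding transcript of 1203. Per base of coding transcript C1qc was 0.796 to 0.923 of C1qb under Sox9f/f, so its place beside Clec4f holds for the deposited FPKM only. Those of Clec4f, Vsig4, Marco, Adgre1 and Csf1r also exceed the longest coding transcript.

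Whether the labelled genotypes differed in resident macrophage transcripts was the question of the main comparison. All 10 members had a positive log2 fold change, Sox9HKO over Sox9f/f, with a median of 0.47. Of all tested genes 50.5% were positive, and their median was 0.00. The members were measured in the same libraries and mark overlapping cells, so these are not 10 separate observations. In edgeR 0 of the 10 passed an adjusted p of 0.05, and 0% of all genes did so. An unadjusted p under 0.05 was reached by 0 members, against 9.74% of all genes on the higher side and 10.1% on the lower side. DESeq2 called 0 members (2.4% of genes higher and 2.05% lower, of those given an adjusted p), with 1 member, Adgre1, below an unadjusted p of 0.05. Limma voom and limma on log2 FPKM called 0 members and 0 genes. Their unadjusted p was below 0.05 for Adgre1, C1qb and C1qc in voom (0.0232, 0.0357 and 0.0463) and for Adgre1 on FPKM (0.042). The share of all genes below that p is not given here for limma. Some members also fell below it in alternative edgeR fits, such as Adgre1 with library-size scaling (unadjusted p = 0.0264). The groups did not overlap for 1 member, Cd5l, which is close to the background of 12.2% of all genes that lay wholly higher in Sox9HKO (14.3% wholly lower).

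A single library set most of the size of this shared difference. Sox9HKO replicate 10 was the highest of the 6 libraries for 10 of the 10 members, again not separate observations. It was the highest for 18.6% of all tested genes. Without that library 8 of 10 members were positive and their median log2 fold change was 0.11. Leaving out Sox9HKO replicate 9 instead gave a median of 0.60, and leaving out replicate 12 gave 0.59.

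**Figure D1:**
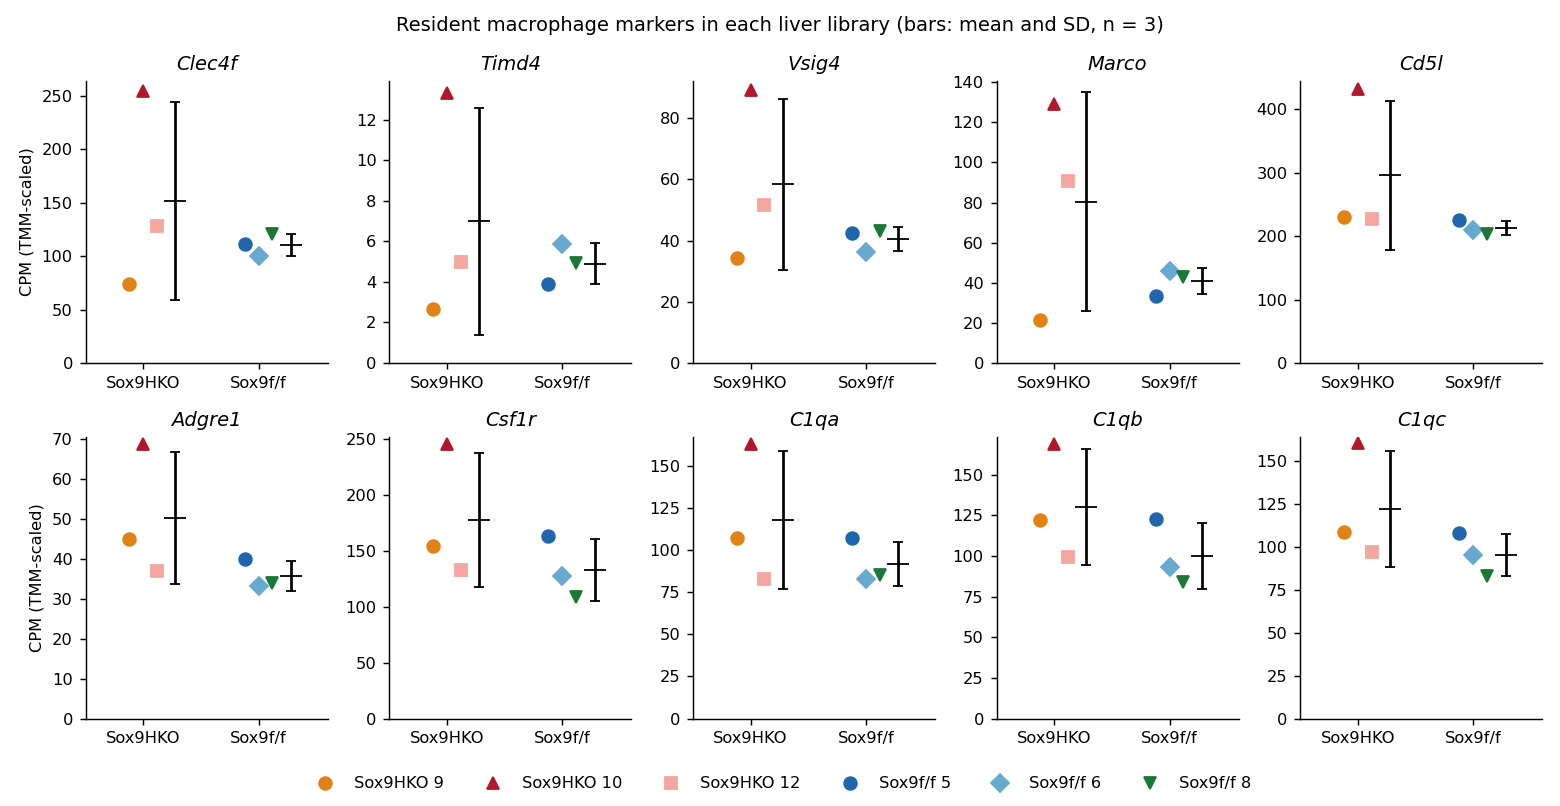
TMM-scaled CPM (vertical axis, from 0) of the 10 marker genes in each library, with Sox9HKO at left and Sox9f/f at right in every panel; points are libraries and bars the mean and SD (n = 3). Sox9HKO replicate 10, the red triangle, is the highest library in all 10 panels, and Marco spreads from 21.6 to 129 CPM among libraries labelled Sox9HKO.

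Promoters are shown for a pair of C1q chain genes, whose levels kept together across libraries, and for Clec4f and Marco, Kupffer-restricted receptors whose levels parted from theirs. RefSeq windows (GRCm38.p6) of 250 bases before to 50 after the start were found for 7 of the 10 members, all but Adgre1, Csf1r and C1qa. Capitals mark, on either strand, GAGGAA, a core of sites for the macrophage factor PU.1, and TGCTGA, a half-site of MAF factors. In C1qc the capitals are the reverse complement, since the match lies on the other strand. GAGGAA occurred in 5 of the 7 windows (Vsig4, Marco, Cd5l, C1qb and C1qc) and in 28.3% of all 32851 promoter windows. TGCTGA occurred in 5 of the 7 (Clec4f, Timd4, Vsig4, Cd5l and C1qb) and in 19.5% of all. A match of letters is not a bound site.
C1qb (chr4:136886151-136886450, minus strand): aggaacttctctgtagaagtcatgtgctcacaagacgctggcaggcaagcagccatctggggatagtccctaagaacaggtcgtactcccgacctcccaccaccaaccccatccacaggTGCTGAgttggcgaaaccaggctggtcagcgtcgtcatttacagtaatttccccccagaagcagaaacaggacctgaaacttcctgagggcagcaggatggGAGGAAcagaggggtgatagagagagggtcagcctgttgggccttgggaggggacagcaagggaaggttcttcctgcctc
C1qc (chr4:136892865-136893164, minus strand): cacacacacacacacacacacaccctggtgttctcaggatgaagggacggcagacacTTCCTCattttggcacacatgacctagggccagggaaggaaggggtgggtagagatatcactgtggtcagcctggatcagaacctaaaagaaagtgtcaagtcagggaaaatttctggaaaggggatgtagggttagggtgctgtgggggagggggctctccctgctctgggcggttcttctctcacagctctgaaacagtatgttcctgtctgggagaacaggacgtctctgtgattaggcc
Clec4f (chr6:83656067-83656366, minus strand): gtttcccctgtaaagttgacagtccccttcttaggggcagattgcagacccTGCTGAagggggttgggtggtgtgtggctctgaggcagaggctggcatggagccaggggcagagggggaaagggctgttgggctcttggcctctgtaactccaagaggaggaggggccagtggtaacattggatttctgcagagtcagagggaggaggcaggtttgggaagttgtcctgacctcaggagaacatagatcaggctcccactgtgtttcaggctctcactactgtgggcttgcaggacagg
Marco (chr1:120504975-120505274, minus strand): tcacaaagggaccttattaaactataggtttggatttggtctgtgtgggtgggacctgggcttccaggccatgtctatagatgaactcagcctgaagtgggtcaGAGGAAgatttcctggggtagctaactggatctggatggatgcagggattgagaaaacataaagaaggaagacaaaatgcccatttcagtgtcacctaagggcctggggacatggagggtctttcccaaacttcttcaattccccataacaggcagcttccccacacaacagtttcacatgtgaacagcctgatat
Counted from the RefSeq start of the transcript, GAGGAA began at position -30 in C1qb, -193 in C1qc and -146 in Marco. For C1qb, C1qc and Clec4f that start differs from the start of the gene by the coordinates given below. TGCTGA began at position -131 in C1qb and -199 in Clec4f.

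Among the receptors that bind particles and microbes, Marco differed most between libraries. Marco, a collagen-like scavenger receptor for bacteria, is a gene of the minus strand of chromosome 1 (GRCm38, 120474538 to 120505024). It had 21.6, 129 and 90.8 CPM in Sox9HKO replicates 9, 10 and 12, against 33.4, 45.7 and 43.0 CPM in Sox9f/f replicates 5, 6 and 8. Replicate 9 was below and replicates 10 and 12 were above every library labelled Sox9f/f. The highest Sox9HKO library held 5.98 times the lowest for Marco, compared with 1.37 times among libraries labelled Sox9f/f. Its log2 fold change was 0.99 ± 0.52 (SE; edgeR adjusted p = 0.330), the largest of the 10 members, and it was 0.47 without Sox9HKO replicate 10 and 1.43 without replicate 9.

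Clec4f, a galactose-binding lectin found on mouse Kupffer cells, also spread widely among the libraries labelled Sox9HKO. The gene lies on the minus strand of chromosome 6 (83644542 to 83656187). Clec4f had 73.5, 254 and 128 CPM under the label Sox9HKO, against 111, 100.3 and 121 CPM in the libraries labelled Sox9f/f. The Sox9f/f values were tight, at 1.20 times from lowest to highest, while the Sox9HKO values spanned 3.45 times and lay on either side of them. The log2 fold change of 0.46 ± 0.38 (edgeR adjusted p = 0.521) turned to -0.13 without Sox9HKO replicate 10.

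Timd4, or TIM-4, binds phosphatidylserine on dying cells and marks long-lived resident macrophages (chromosome 11, 46810800 to 46844332, plus strand). It was the rarest member, with 71, 362 and 137 counts in libraries labelled Sox9HKO and 85, 153 and 121 counts in those labelled Sox9f/f. These were 2.65, 13.3 and 4.98 CPM under the label Sox9HKO, against 3.88, 5.89 and 4.91 CPM under Sox9f/f. Replicate 9 was again the lowest of the 6 and replicate 10 the highest, and replicate 12 lay inside the Sox9f/f range. Its log2 fold change was 0.51 ± 0.52 (edgeR adjusted p = 0.601), and -0.36 without Sox9HKO replicate 10.

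Vsig4, the complement receptor CRIg that takes up particles coated with C3 fragments, stood at 34.4, 89.2 and 51.5 CPM in libraries labelled Sox9HKO and 42.4, 36.2 and 43.1 CPM in those labelled Sox9f/f. The gene lies on the minus strand of the X chromosome (96247203 to 96293438). The order of the libraries labelled Sox9HKO was that of Clec4f and Timd4, with replicate 9 under every library labelled Sox9f/f. The log2 fold change was 0.52 ± 0.30 (edgeR adjusted p = 0.365) with all libraries and 0.09 without replicate 10.

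Cd5l, a secreted scavenger protein also called AIM, was the only member whose groups did not overlap. Its gene lies on the plus strand of chromosome 3 (87357881 to 87371073). Cd5l had 229.8, 432 and 227 CPM in libraries labelled Sox9HKO, against 225, 209.9 and 204 CPM in those labelled Sox9f/f. The gap was narrow, since Sox9HKO replicate 12 at 227 CPM was next to Sox9f/f replicate 5 at 225 CPM. For groups that do not overlap, the exact permutation test over the 6 libraries can only give p = 0.1, the smallest that 3 against 3 allows. That value thus restates the lack of overlap. In the other members the exact permutation p lay between 0.2 (Adgre1 and C1qc) and 0.8 (Timd4). The edgeR adjusted p of Cd5l was 0.318 at a log2 fold change of 0.48 ± 0.25. Without Sox9HKO replicate 10 the log2 fold change was 0.11.

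**Figure D2:**
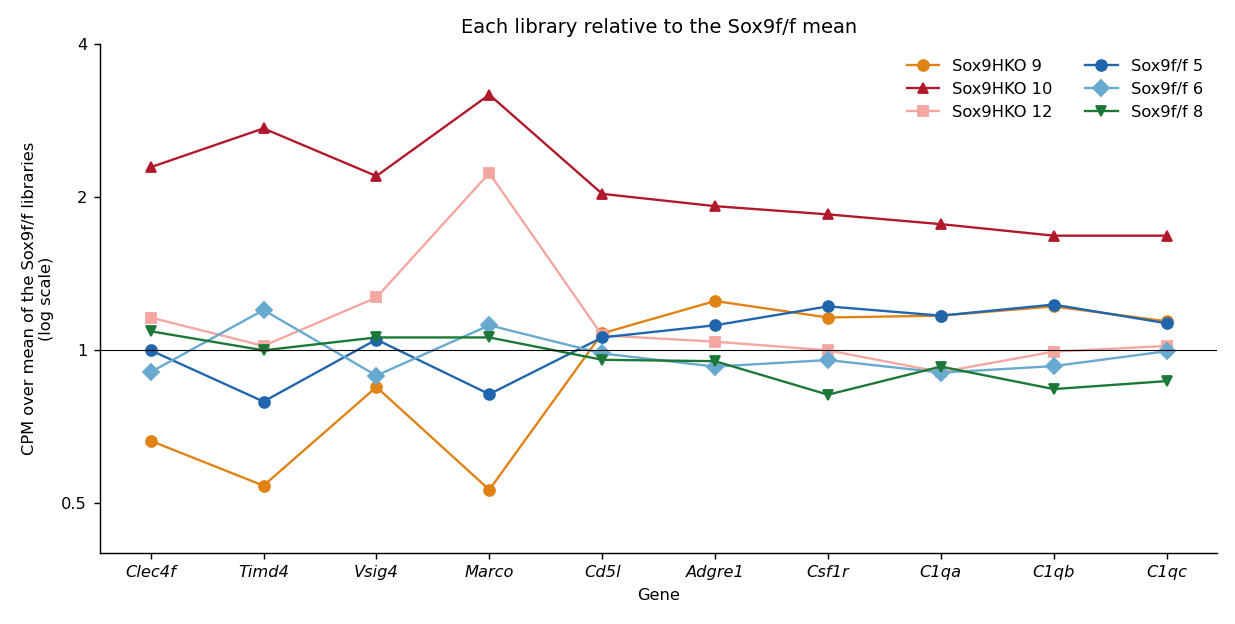
Each library's CPM divided by the mean of the 3 libraries labelled Sox9f/f (vertical axis, log scale) for the 10 genes on the horizontal axis; lines join the genes of 1 library. Sox9HKO replicate 9 runs at 0.532 to 0.847 for Clec4f, Timd4, Vsig4 and Marco and at 1.08 to 1.25 for the other 6, while replicate 10 runs at 1.68 to 3.18.

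The markers shared by all macrophages spanned 1.65 to 1.96 times from lowest to highest among libraries labelled Sox9HKO and 1.21 to 1.5 times among those labelled Sox9f/f. For the 5 Kupffer-restricted genes the spans were 1.90 to 5.98 times under Sox9HKO and 1.10 to 1.52 times under Sox9f/f, so the wider spread of this group was seen under the label Sox9HKO. Adgre1, the F4/80 antigen (chromosome 17, 57358686 to 57483529, plus strand), had 44.8, 68.7 and 37.0 CPM in libraries labelled Sox9HKO and 40.0, 33.1 and 34.0 CPM in those labelled Sox9f/f. Here replicate 9 was above all libraries labelled Sox9f/f, and replicate 12 was inside their range. Its log2 fold change was 0.49 ± 0.22 (edgeR adjusted p = 0.266), the smallest adjusted p of the 10, and 3032 genes of the table had a smaller edgeR p. The log2 fold change of Adgre1 was 0.20 without Sox9HKO replicate 10. Csf1r, the receptor tyrosine kinase for CSF1 and interleukin 34, had 154, 245 and 133 CPM in libraries labelled Sox9HKO and 163, 127 and 109 CPM in those labelled Sox9f/f, so the groups overlapped. Its log2 fold change was 0.42 ± 0.25 (edgeR adjusted p = 0.372), and 0.11 without replicate 10. The gene (chromosome 18, 61105572 to 61132149, plus strand) overlaps Hmgxb3 in the table, and no source here says that counting used strand, so its reads are uncertain to that extent.

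C1q is the recognition molecule of the classical complement pathway, built from A, B and C chains that are made by tissue macrophages. The 3 genes stand in a row on the minus strand of chromosome 4, C1qb (136880129 to 136886187), C1qc (136889804 to 136893065) and C1qa (136895917 to 136898803), in a stretch of 18675 bases. C1qa had 107, 163 and 83.1 CPM in libraries labelled Sox9HKO and 107, 83.0 and 85.2 CPM in those labelled Sox9f/f. C1qb had 122, 169 and 99.5 CPM in libraries labelled Sox9HKO against 123, 93.3 and 84.0 CPM in those labelled Sox9f/f. For C1qc the values were 109, 160.5 and 97.1 CPM in libraries labelled Sox9HKO against 108, 95.2 and 83.2 CPM in those labelled Sox9f/f. Replicate 10 was highest for each chain, and the next were Sox9HKO replicate 9 and Sox9f/f replicate 5, almost level with each other. The log2 fold changes were 0.36 ± 0.24, 0.38 ± 0.22 and 0.36 ± 0.20 for C1qa, C1qb and C1qc, with edgeR adjusted p of 0.423, 0.366 and 0.352. Without Sox9HKO replicate 10 they were 0.06, 0.15 and 0.11.

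The chains kept nearly fixed proportions in every library. C1qa over C1qb was 0.922, 1.01 and 0.874 in libraries labelled Sox9HKO and 0.910, 0.931 and 1.06 in those labelled Sox9f/f, as ratios of FPKM. C1qc over C1qb was 0.454, 0.482 and 0.494 in libraries labelled Sox9HKO and 0.445, 0.517 and 0.501 in those labelled Sox9f/f. The low share of C1qc rests on the gene length behind the FPKM, 2149 bases, whereas its coding transcript in GENCODE M21 has 1203 bases. For C1qa and C1qb the length behind the FPKM equals the coding transcript, at 1040 and 1088 bases. Per base of coding transcript, C1qc over C1qb was 0.811, 0.861 and 0.883 in libraries labelled Sox9HKO and 0.796, 0.923 and 0.895 in those labelled Sox9f/f. The highest ratio over the lowest was 1.21 for C1qa over C1qb and 1.16 for C1qc over C1qb. Other shared macrophage genes came close to this, at 1.27 for Csf1r over Adgre1 and 1.26 for C1qb over Adgre1 (FPKM). For Kupffer-restricted genes over C1qb (FPKM) the highest over the lowest was 1.41 with Cd5l, 1.87 with Vsig4, 2.49 with Clec4f, 3.64 with Timd4 and 5.13 with Marco. Cd5l thus came near the spread of the chains, while Marco over C1qb was 0.0960, 0.415 and 0.493 in libraries labelled Sox9HKO and 0.146, 0.265 and 0.277 in those labelled Sox9f/f.

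**Figure D3:**
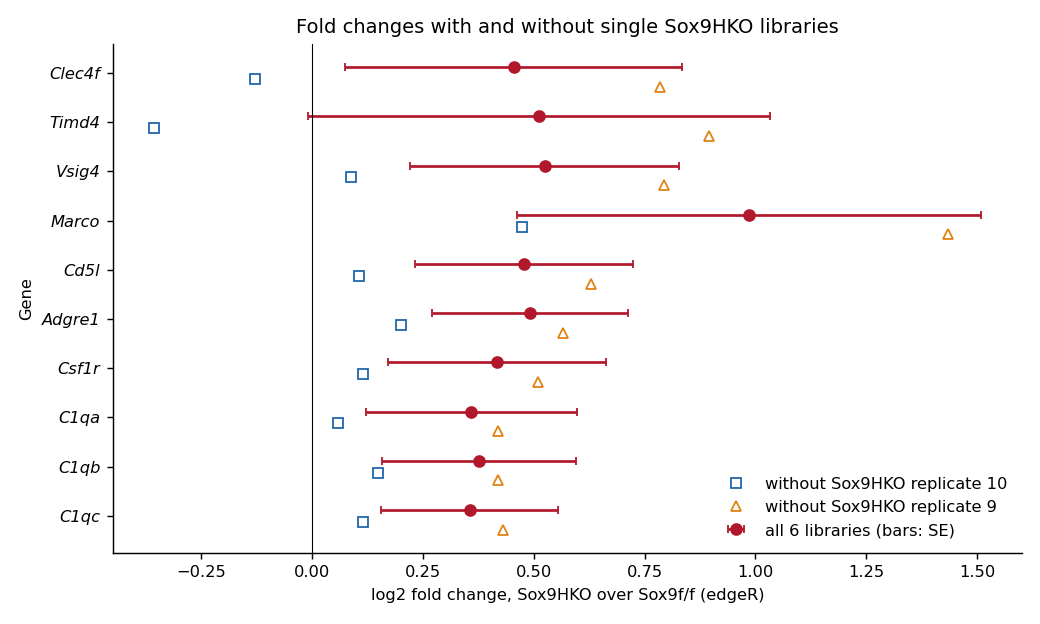
Log2 fold change, Sox9HKO over Sox9f/f (horizontal axis, edgeR), of each gene with all 6 libraries (circles, bars SE), without Sox9HKO replicate 10 (squares) and without replicate 9 (triangles). Clec4f and Timd4 cross 0 without replicate 10, at -0.13 and -0.36, and the C1q chains move least between the 3 fits.

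Dividing by Adgre1 inside each library takes out scaling between libraries and compares Kupffer-restricted transcripts with a marker of macrophages at large. The 5 ratios were computed as differences of log2 CPM. Clec4f minus Adgre1 was 0.72, 1.88 and 1.79 in libraries labelled Sox9HKO and 1.48, 1.6 and 1.83 in those labelled Sox9f/f. Marco minus Adgre1 was -1.05, 0.91 and 1.29 in libraries labelled Sox9HKO and -0.26, 0.46 and 0.34 in those labelled Sox9f/f. Timd4 minus Adgre1 was -4.07, -2.36 and -2.89 in libraries labelled Sox9HKO and -3.36, -2.49 and -2.79 in those labelled Sox9f/f. Sox9HKO replicate 9 was the lowest of the 6 libraries in all 5 ratios, and Sox9f/f replicate 5 the lowest library labelled Sox9f/f in all 5. All ratios share Adgre1, so these are not 5 separate observations. Cd5l kept the most constant ratio to Adgre1, between 2.36 and 2.65 in libraries labelled Sox9HKO and between 2.49 and 2.66 in those labelled Sox9f/f. The differences between group means, Sox9HKO minus Sox9f/f, were -0.17 for Clec4f, -0.23 for Timd4, -0.03 for Vsig4, 0.21 for Marco and -0.04 for Cd5l. Exact permutation tests, two-sided over the 6 libraries, gave p between 0.8 and 1, and 1 for each after adjustment over the 5, where 0.1 is the smallest p the design allows. The spread among libraries labelled Sox9HKO thus exceeded the difference between groups for each of the 5 genes.

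**Figure D4:**
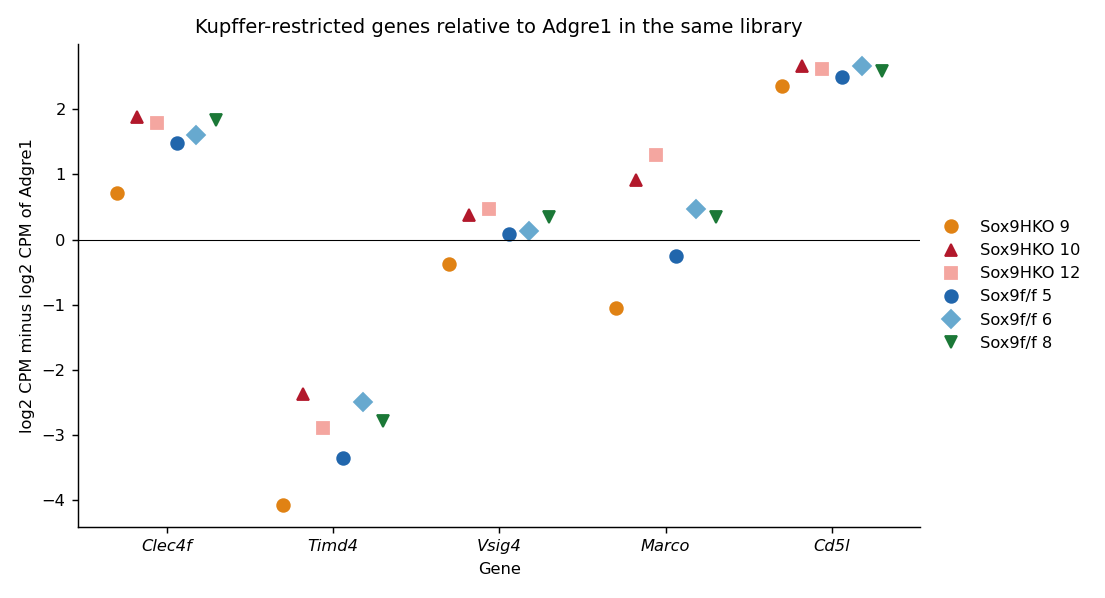
Log2 CPM of 5 Kupffer-restricted genes minus that of Adgre1 in the same library (vertical axis), with the 3 libraries labelled Sox9HKO drawn left of the 3 libraries labelled Sox9f/f for each gene. Sox9HKO replicate 9, the orange circle, is lowest for every gene, from -4.07 for Timd4 to 2.36 for Cd5l.

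Genes outside the 10 were then ranked by how closely they followed the markers across the 6 libraries, among 8264 protein-coding genes of at least 10 CPM. Likeness was the root-mean-square difference of log2 CPM after centring each gene on its mean. Closest to the mean of the C1q chains were Trim30a (0.05), Trim35 (0.06) and Axl (0.07), where a flat profile would be 0.32 away. Axl, a receptor tyrosine kinase for the uptake of dead cells, had 118, 157 and 90.9 CPM in libraries labelled Sox9HKO and 105, 81.4 and 78.4 CPM in those labelled Sox9f/f. Nearest to the mean of the Kupffer-restricted genes were Fcna (0.21), Vcam1 (0.23) and Cfp (0.24), with a flat profile at 0.56. Fcna, a ficolin that recognises sugars for the lectin complement pathway, had 40.2, 94.1 and 57.4 CPM in libraries labelled Sox9HKO and 54.2, 53.2 and 52.9 CPM in those labelled Sox9f/f. Vcam1, an adhesion molecule, and Cfp, or properdin of the alternative complement pathway, had the same high replicate 10. In both genes replicate 12 lay between the other libraries labelled Sox9HKO and above every library labelled Sox9f/f. Cfp was also lowest in replicate 9. These genes were picked for their likeness, so the fit itself is no test.

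**Figure D5:**
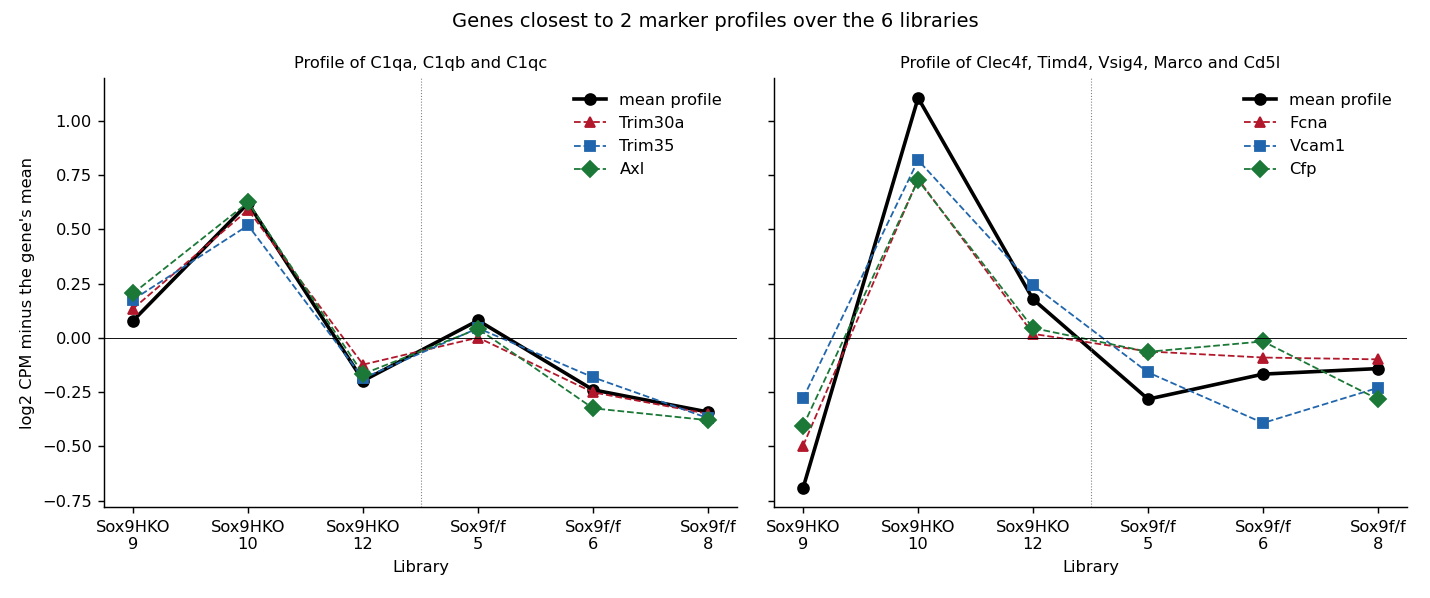
Log2 CPM minus each gene's mean (vertical axis) in the 3 libraries labelled Sox9HKO and the 3 labelled Sox9f/f (horizontal axis) for the mean profile of the C1q chains with its 3 closest genes (left) and of the Kupffer-restricted genes with theirs (right). Both profiles peak in Sox9HKO replicate 10, and replicate 9 is at 0.08 in the left profile and at -0.69 in the right.

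For the lists that follow, 50.5% of all tested genes were positive. At an unadjusted edgeR p below 0.05, 9.74% were higher and 10.1% lower. DESeq2 called 2.4% higher and 2.05% lower, of genes given an adjusted p. Without Sox9HKO replicate 10, 7199 of 14287 tested genes were positive and their median was 0.004. Other Kupffer cell genes had a smaller median difference than the 10 members. Of 14, 12 had a positive log2 fold change with a median of 0.29, and without Sox9HKO replicate 10, 9 of 14 were positive with a median of 0.10. In edgeR 0 passed over all genes, 0 were higher and 1 lower at an unadjusted p below 0.05, and DESeq2 called 0. The lower gene was Nr1h3, which encodes LXR alpha, a nuclear receptor of Kupffer cells and hepatocytes, with 108, 117 and 103 CPM in libraries labelled Sox9HKO and 129, 122 and 144 CPM in those labelled Sox9f/f (-0.27 ± 0.11, edgeR adjusted p = 0.242). Slc40a1, the iron exporter ferroportin, stood at 0.29 ± 0.15 and Siglec1, the sialic acid receptor CD169, at 0.51 ± 0.27.

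The list named for the CSF1 receptor axis also held Csf2, a separate cytokine, and its receptor chains Csf2ra and Csf2rb, which do not bind CSF1. It had 10 tested genes of 11, of which 7 were positive (median 0.36), and Csf2 was at 0 in every library. A single gene had an unadjusted p below 0.05, the shared cytokine receptor chain Csf2rb, with 33.1, 32.1 and 25.3 CPM in libraries labelled Sox9HKO and 27.7, 14.9 and 16.5 CPM in those labelled Sox9f/f (0.62 ± 0.24, edgeR adjusted p = 0.219). Csf2ra stood at 0.70 ± 0.31 and Spi1, which encodes PU.1, at 0.46 ± 0.26. EdgeR and DESeq2 called 0 of these. Without Sox9HKO replicate 10, 6 of 10 were positive and the median was 0.21.

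Genes of macrophages and myeloid cells at large were positive in 15 of 15, with a median of 0.45, and in 15 of 15 without Sox9HKO replicate 10, at a median of 0.33. EdgeR called 0, and 3 had an unadjusted p below 0.05. DESeq2 called 1, the leukocyte phosphatase Ptprc (CD45). Ptprc had 22.7, 24.1 and 14.3 CPM in libraries labelled Sox9HKO and 14.6, 9.62 and 9.21 CPM in those labelled Sox9f/f, so the groups overlapped (0.87 ± 0.25, edgeR adjusted p = 0.156, DESeq2 adjusted p = 0.0357). Mpeg1, a pore-forming protein of phagocytes, stood at 0.60 ± 0.24 and Cd14, a lipopolysaccharide receptor, at 0.37 ± 0.15. Summed over the list, the level was 1425.5, 1319.5 and 772 CPM in libraries labelled Sox9HKO and 1211.9, 684 and 701 CPM in those labelled Sox9f/f. Sox9HKO replicate 9 and Sox9f/f replicate 5, the libraries with the lowest Kupffer-restricted ratios in their groups, thus had the highest sums in their groups. The named genes followed this only in part. Ptprc, Mpeg1 and Cd14 were each highest in replicate 5 among libraries labelled Sox9f/f. Among those labelled Sox9HKO each was highest in replicate 10, and Cd14 was lowest in replicate 9.

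Sox9HKO replicate 9 and Sox9f/f replicate 5 also had the highest sums in their groups for genes of recruited and lipid-associated macrophages. The sums were 698, 437 and 521 CPM in libraries labelled Sox9HKO and 463, 237 and 239 CPM in those labelled Sox9f/f. All 13 were positive (median 0.55), and 12 of 13 without Sox9HKO replicate 10 (median 0.51). EdgeR called 0, and 3 had an unadjusted p below 0.05, these being Spp1, Lpl and Cd9. DESeq2 called 2 of them. Spp1, osteopontin, had 91.1, 118 and 173 CPM in libraries labelled Sox9HKO and 51.2, 50.6 and 38.2 CPM in those labelled Sox9f/f (DESeq2 adjusted p = 1.40e-05, edgeR 0.139), and duct cells also make it. Lpl, lipoprotein lipase, had 117, 83.5 and 114 CPM in libraries labelled Sox9HKO and 71.8, 57.9 and 53.5 CPM in those labelled Sox9f/f (0.78 ± 0.17, DESeq2 adjusted p = 0.00648, edgeR 0.142). Cd9, a tetraspanin, stood at 0.39 ± 0.13. Of these 3 genes Lpl was also highest in the same libraries, whereas Spp1 was lowest of the libraries labelled Sox9HKO in replicate 9 and Cd9 was highest in replicate 10.

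Receptors and bridging proteins for the uptake of dead cells were positive in 9 of 11, with a median of 0.44. EdgeR called 0, and against 9.74% of all tested genes, 5 of this list were higher with an unadjusted p below 0.05. These were Mertk, Msr1 and Gas6 and, named after their values were seen, Pros1 and Cd36. DESeq2 called 2, Mertk and Msr1. Mertk, a kinase receptor that engulfs apoptotic cells, had 54.6, 59.4 and 48.8 CPM in libraries labelled Sox9HKO and 41.0, 39.0 and 39.1 CPM in those labelled Sox9f/f (0.45 ± 0.11, edgeR adjusted p = 0.144, DESeq2 0.0365). Msr1, a scavenger receptor related to Marco, had 14.6, 18.9 and 12.2 CPM in libraries labelled Sox9HKO and 10.5, 7.70 and 8.93 CPM in those labelled Sox9f/f (0.75 ± 0.20, DESeq2 adjusted p = 0.0363, edgeR 0.151). Gas6, the ligand that bridges Axl and Mertk to dying cells, stood at 0.55 ± 0.16. Without Sox9HKO replicate 10, 8 of 11 were positive and the median was 0.27.

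Complement genes around C1q and the Vsig4 ligand C3 were mixed, with 10 of 14 tested positive and a median of 0.08, against 6 of 14 and a median of -0.01 without Sox9HKO replicate 10. EdgeR called 0, while 2 were higher and 1 lower with an unadjusted p below 0.05. DESeq2 called 1. C3ar1, the C3a receptor, was not called and stood at 0.88 ± 0.34 (DESeq2 adjusted p = 0.110). Calr, a chaperone of the endoplasmic reticulum that also binds C1q, stood at -0.48 ± 0.15. Of 9 tested in a list of other lectins, scavenger receptors and further surface receptors, 7 were positive (median 0.37; 6 and 0.14 without Sox9HKO replicate 10). In this list 1 was higher and 1 lower at an unadjusted p below 0.05, and 0 were called by edgeR or DESeq2. Clec7a, the beta-glucan receptor dectin-1, had 63.4, 61.8 and 29.3 CPM in libraries labelled Sox9HKO and 40.6, 14.2 and 20.6 CPM in those labelled Sox9f/f (1.04 ± 0.42, edgeR adjusted p = 0.227). Timd2 stood at -0.43 ± 0.15 and Adgre5 at 0.35 ± 0.19.

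Markers of other liver cell types are given for comparison, and their part in the results was not tested. Stellate and fibroblast markers were positive in 8 of 8 (median 0.52) and summed to 675 to 865 CPM in libraries labelled Sox9HKO and 497 to 602 in those labelled Sox9f/f. DESeq2 called 5 of them, Lrat, Col1a1 and Col3a1 and, named after their values were seen, Dcn and Pdgfrb. All 5 were higher, where DESeq2 called 2.4% of all genes higher. EdgeR called 0, and these 5 had an unadjusted p below 0.05. Lrat stood at 0.85 ± 0.13, Col1a1 at 1.41 ± 0.31 and Col3a1 at 1.19 ± 0.31. Hepatocyte markers were positive in 2 of 10 (median -0.21), with 3 lower at an unadjusted p below 0.05, 1 lower in DESeq2 and 0 in edgeR, and F2 stood at -0.43 ± 0.12, Serpina1c at -0.61 ± 0.20 and Alb at -0.35 ± 0.13. Sinusoidal endothelial markers, which Kupffer cells adjoin, were positive in 2 of 9 (median -0.11; 1 of 9 and -0.31 without Sox9HKO replicate 10) and summed to 377 to 566 CPM in libraries labelled Sox9HKO and 465 to 521 in those labelled Sox9f/f. Of these Gpr182 stood at -0.40 ± 0.14, Lyve1 at 0.57 ± 0.31 and Pecam1 at -0.23 ± 0.13, with 1 lower at an unadjusted p below 0.05 and 0 called by edgeR or DESeq2.

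Neutrophil, dendritic and lymphocyte markers were low in level. Neutrophil markers summed to 14.7 to 23.2 CPM in libraries labelled Sox9HKO and 7.19 to 14.1 in those labelled Sox9f/f, and 5 of 10 passed the filter on low counts, led by Csf3r at 0.83 ± 0.33, S100a9 at 0.75 ± 0.34 and S100a8 at 0.72 ± 0.39. Dendritic cell markers summed to 17.2 to 21.8 CPM in libraries labelled Sox9HKO and 15.6 to 19.9 in those labelled Sox9f/f, with Flt3 at 0.57 ± 0.29, Clec9a at 0.35 ± 0.46 and Ccr7 at 0.25 ± 0.28. T, NK and B cell markers summed to 6.68 to 9.61 CPM in libraries labelled Sox9HKO and 4.08 to 7.99 in those labelled Sox9f/f, and the only tested one with a mean of at least 1 CPM was Cd79b at 0.51 ± 0.33. Red cell and spleen genes, listed because spleen also holds resident macrophages, summed to 61.4 to 97.2 CPM in libraries labelled Sox9HKO and 70.1 to 76.9 in those labelled Sox9f/f. Among them Alas2 stood at -0.05 ± 0.35, Hba-a2, which has a near-identical copy, at 0.17 ± 0.47 and Tcf21, which stellate cells also express, at 0.71 ± 0.16. In these 4 lists edgeR called 0 genes, and DESeq2 called Tcf21 alone. An unadjusted p below 0.05 was reached on the higher side by Csf3r and Tcf21 and, named after their values were seen, by Retnlg of the neutrophil and Cd8a of the lymphocyte list.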

How the data were processed

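RNA-seq of 6 liver libraries was used, grouped by the genotype label alone (3 Sox9HKO, 3 Sox9f/f). Replicate numbers were not shared between groups, and the labels do not say whether each library is a separate animal, so p-values measure the spread between these samples. The deposited table gives raw counts per gene per the file headers, and FPKM made by the authors, per the file headers. Per the submitters' processing notes, HISAT2 2.0.4 and StringTie 1.3.0 were used with mm10 and GRCm38.p4, in roles not stated. A counting tool and strand setting were not given in the sources used here. Gene coordinates come from the table.

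All 34745 genes entered edgeR 4.0.16 (R 4.3.3): filterByExpr (14137 genes kept, at least 99.9% of counts in each library), TMM scaling, robust quasi-likelihood test, Benjamini-Hochberg adjustment over all genes tested, called under 0.05. SEs came from the fold change and its F statistic. CPM are TMM-scaled. Every pair of libraries differed beyond sampling noise (chi-square per degree of freedom 34.9 or more). Ratios used log2 CPM with a prior count of 0.5. Members and lists were chosen with earlier results of these data known, and lists are described by counts and medians. Named genes were Sox9, the 10 members, per list the 3 genes of smallest p with a mean of at least 1 CPM, and the 3 genes closest to each profile. A single gene that the rule names is not reported here. Where 2 identifiers carried a symbol (2 symbols), the one with more counts was used. Alternatives were DESeq2 1.42.0, limma 3.58.1 (voom with quality weights; log2(FPKM + 0.5)), other scalings and filters, a non-robust fit, trends on transcript length and GC taken out per library (splines of 4 degrees of freedom; GENCODE M21 covered 99.7% of tested genes) and each library left out. The scripts were tested on simulated data. Figures used matplotlib 3.10.9.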

Additional observations from a re-analysis of the deposited data

How the results depend on the processing

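No paired analysis was possible because the groups share no replicate numbers. Of 160 recomputed fold changes of the 10 members, 158 kept their direction and their side of the threshold. The other 2 reversed, both without Sox9HKO replicate 10 (Clec4f -0.13, Timd4 -0.36). With single libraries left out Clec4f ranged from -0.13 to 0.78 and Timd4 from -0.36 to 0.90. The count of members called was 0 in every alternative, also at an adjusted p under 0.1. Over all genes the count of calls was 0, but 605 with DESeq2, 10 with no filter (20074 genes) and 0 to 3 with single libraries left out (2 without Sox9HKO replicate 12, 3 without Sox9f/f replicate 5). Library-size scaling shifted the median of all genes by 0.11.

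Members whose groups do not overlap numbered 1, and 1 to 5 with single libraries left out, an alternative added after seeing the data: 4 without Sox9HKO replicate 9 (17.6% of all tested genes then lay wholly higher), 4 without Sox9HKO replicate 12 (20.8%) and 5 without Sox9f/f replicate 5 (20.3%). The differences of the 5 ratios to Adgre1 turned sign in several settings, and their leave-one-out values and those of the list medians were also added after seeing the data. With Csf1r in place of Adgre1, Vsig4 stood at 0.0315 and Cd5l at 0.0237. With single libraries left out they ranged from -0.38 to 0.20 for Clec4f, -0.60 to 0.25 for Timd4, -0.19 to 0.24 for Vsig4, -0.25 to 0.92 for Marco and -0.091 to 0.0561 for Cd5l. The cause of the spread was not tested.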
